A study of Mus musculus with 24 samples.

Results

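The 10 genes described here encode ETS transcription factors that act downstream of the kinase ERK, namely Etv1, Etv4, Etv5, Etv6, Ets1, Ets2, Elk1, Elk3, Elk4 and Erf. They were taken by gene symbol from a list of names, which was chosen with earlier results of these data known. All 10 of 10 were found among the 35022 genes counted for removal of PD03 and among the 48709 counted for removal of CHIRON. RNA depleted of ribosomal RNA was sequenced from E14 mouse embryonic stem cells (mESCs; strain and genotype 129m wt) attached to fibronectin on soft or stiff StemBond hydrogels, which are polyacrylamide gels that tether the matrix firmly. All groups spent 12 h in 2i+LIF, a medium with 1 µM PD03 (an inhibitor of MEK, the kinase above ERK), 3 µM CHIRON (an inhibitor of GSK3, which activates Wnt signalling) and the cytokine LIF. The 0 h controls were collected in 2i+LIF after those 12 h. The other groups were collected 2 h or 12 h after 1 inhibitor was taken away. Removal of PD03 left CHIRON+LIF, and removal of CHIRON left PD03+LIF. Each experiment therefore had 6 groups of substrate and time with 2 replicates. The comparisons asked how ETS genes respond when the block on ERK, or the activation of Wnt signalling, is lifted and whether stiffness alters that response. No group stayed in 2i+LIF for the further 2 h or 12 h, so effects of removal and of longer culture cannot be told apart.

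ETS factors share a DNA-binding domain that recognises a GGAA core. Etv1, Etv4 and Etv5 form the PEA3 subfamily, activators whose transcription commonly follows FGF and ERK signalling and is repressed by capicua when ERK is inactive. Elk1, Elk3 and Elk4 are the ternary complex factors, which bind with SRF at immediate early genes and are phosphorylated by ERK. Ets1 and Ets2 are activators with an ERK phosphorylation site, Erf is a repressor that leaves the nucleus when ERK phosphorylates it, and Etv6 is a repressor of the TEL subfamily. Because ERK acts on many of these proteins by phosphorylation, their transcript levels are not a measure of their activity.

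Promoter sequences of 8 of the 10 genes, all but Etv4 and Ets1, were taken from RefSeq (build GRCm38.p6), with 12 promoters of 300 bases in all, each from 250 bases before to 50 after a start site. Those of Erf, Etv6 and Elk3, whose transcripts rose 12 h after PD03 removal, and both promoters of Etv5, whose transcript did not pass the test against 0 h, are shown for comparison. Sequences read 5′ to 3′ on the strand of the gene, and capitals mark the ETS core GGAA on either strand (TTCC where it lies on the other strand).
Erf (chr7:25250709-25251008, minus strand): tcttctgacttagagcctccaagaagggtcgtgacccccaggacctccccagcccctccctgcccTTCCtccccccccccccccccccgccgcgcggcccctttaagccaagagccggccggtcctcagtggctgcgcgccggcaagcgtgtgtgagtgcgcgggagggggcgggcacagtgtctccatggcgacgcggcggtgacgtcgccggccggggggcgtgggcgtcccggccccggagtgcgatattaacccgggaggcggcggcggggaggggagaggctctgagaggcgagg
Etv6 (chr6:134035450-134035749, plus strand): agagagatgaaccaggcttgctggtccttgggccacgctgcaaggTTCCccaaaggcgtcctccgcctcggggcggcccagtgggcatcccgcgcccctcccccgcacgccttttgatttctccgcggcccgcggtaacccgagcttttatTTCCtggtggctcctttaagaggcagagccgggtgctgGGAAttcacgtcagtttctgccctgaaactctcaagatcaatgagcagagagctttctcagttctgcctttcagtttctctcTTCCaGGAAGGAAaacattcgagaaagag
Elk3 (chr10:93311110-93311409, minus strand): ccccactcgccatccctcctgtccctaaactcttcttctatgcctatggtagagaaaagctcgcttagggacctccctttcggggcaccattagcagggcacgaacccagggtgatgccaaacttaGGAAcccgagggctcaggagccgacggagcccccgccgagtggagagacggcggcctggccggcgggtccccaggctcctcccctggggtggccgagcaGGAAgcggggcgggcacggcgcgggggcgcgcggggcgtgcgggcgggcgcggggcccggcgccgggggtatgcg
Etv5 (chr16:22438319-22438618, minus strand): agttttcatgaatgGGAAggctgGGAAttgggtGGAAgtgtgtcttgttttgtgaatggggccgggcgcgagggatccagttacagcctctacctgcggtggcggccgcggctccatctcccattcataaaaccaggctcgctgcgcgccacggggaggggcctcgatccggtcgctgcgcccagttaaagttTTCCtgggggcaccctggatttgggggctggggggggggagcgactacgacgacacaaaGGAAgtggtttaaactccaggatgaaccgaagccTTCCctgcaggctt
Etv5 (chr16:22439521-22439820, minus strand): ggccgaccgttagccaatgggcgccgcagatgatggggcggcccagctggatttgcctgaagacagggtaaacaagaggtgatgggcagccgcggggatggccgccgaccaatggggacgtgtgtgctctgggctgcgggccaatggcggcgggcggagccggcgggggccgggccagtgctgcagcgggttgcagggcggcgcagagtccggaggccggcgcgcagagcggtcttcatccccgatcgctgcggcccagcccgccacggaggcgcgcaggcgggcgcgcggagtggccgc
The Erf window held 1 match, the Etv6 window 6, the Elk3 window 2, the Etv5 window printed first 6 and the other Etv5 window 0. The core is short and occurred in 95.7% of 21262 promoters of protein-coding genes. None of the 12 promoters of these 8 genes, which do not include Etv4, held the capicua octamer TGAATGAA, its variant TGAATGGA or the CArG box bound by SRF, which occurred in 1.11%, 1.05% and 1.52% of all promoters. These matches describe letters in the windows and not bound sites, and other variants of the octamer were not searched.

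Total counts per library lay between 16222196 and 26442153 in the 12 libraries of PD03 removal and between 19393787 and 31111260 in 11 libraries of CHIRON removal. The first replicate of stiff at 2 h of CHIRON removal held 171333 counts and was left out, so that group has 1 library, whose spread was assumed to be that of the other groups. The summed level of 7 stem cell markers was 5602 to 7126 CPM (counts scaled to the normalised library size) after PD03 removal and 4970 to 5470 CPM after CHIRON removal, whereas that of 6 fibroblast markers was at most 12.17 and 27.1 CPM. The labels do not say whether replicates were separate cultures, so p-values measure the spread between these samples, which may be technical. The 2 tables were normalised separately and were tested separately.

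Per exon length, Etv5 was the most abundant of the 10 transcripts, with a median of 148 RPKM (CPM divided by the exon length in kilobases) over the 12 libraries of PD03 removal. Erf followed with 57.8 RPKM and Etv4 with 56.0 RPKM, and their ranges over libraries overlapped. Etv6 had a median of 13.7 RPKM and Elk1 of 6.56 RPKM. Ets2, Elk4, Etv1 and Elk3 had medians of 4.11, 3.84, 3.17 and 3.03 RPKM, and each of them overlapped its neighbour in this order. Ets1 was last, at 0.0984 RPKM, from 2 to 18 counts per library, so that only large changes in it could be detected at this depth. In the table of CHIRON removal the medians were 152 RPKM for Etv5, 68.3 RPKM for Erf, 59.5 RPKM for Etv4 and 16.8 RPKM for Etv6, and those of the other genes ran from 11.5 RPKM for Elk1 to 0.0759 RPKM for Ets1.

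**Figure D1:**
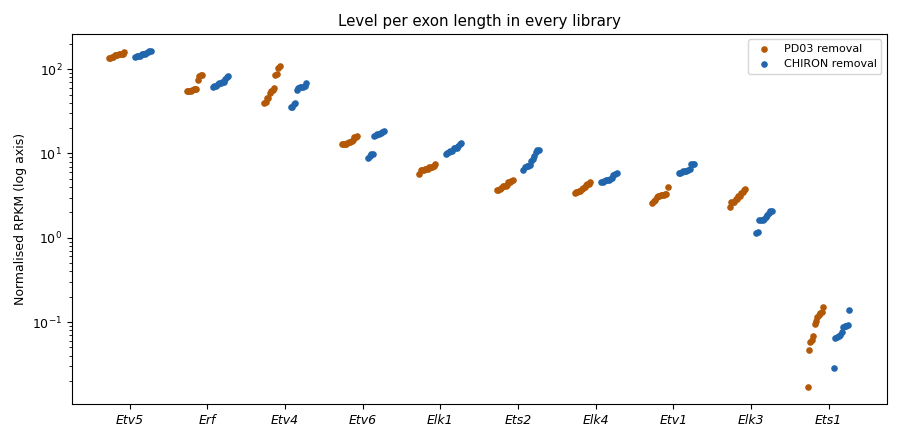
Level of each ETS gene per exon length (normalised RPKM, log axis) in every library, with PD03 removal in orange (12 libraries) and CHIRON removal in blue (11 libraries), and points of a gene sorted by value. Etv5 lies highest and Ets1 lowest in both tables.

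Etv4 was the ETS gene whose rise passed the test at 2 h after PD03 removal. On soft substrates its normalised level was 124 and 128 CPM at 0 h, 162 and 173 CPM at 2 h and 263 and 276 CPM at 12 h. The stiff libraries gave 140.2 and 142 CPM before removal, 186 and 174 CPM after 2 h and 324 and 335 CPM after 12 h. Replicates of the 3 times did not overlap on either substrate. Its log2 fold change at 2 h was 0.41 on soft (SE 0.05, adjusted p = 6.7e-06) and 0.35 on stiff substrates (SE 0.05, adjusted p = 3.1e-05). By 12 h the change against 0 h was 1.10 on soft (2.14-fold, SE 0.05, adjusted p = 1.3e-15) and 1.22 on stiff substrates (2.33-fold, SE 0.05, adjusted p = 4.0e-17). Of the 13423 genes tested, whether or not they passed, 202 had a larger fitted log2 fold change than Etv4 at 12 h on soft and 230 on stiff substrates. The comparisons at 2 h and 12 h share their 0 h libraries. In bulk RNA, a change in the number of cells that express a gene and a change in its RNA per cell cannot be told apart.

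At 2 h, 1 of the 10 genes passed the test on each substrate, beside 1.96% of all genes on soft (1.31% rose and 0.648% fell) and 2.73% on stiff substrates (1.83% rose and 0.894% fell). The gene was Etv4 on both. Etv1 on soft substrates had 0.26 on the log2 scale (SE 0.08) and did not pass (adjusted p = 0.12). Elk3 moved by 0.14 (SE 0.12) on soft and by -0.11 (SE 0.12) on stiff substrates, and neither value passed.

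At 12 h, 6 of the 10 genes had risen on each substrate and none had fallen by edgeR's quasi-likelihood test (7 had an unadjusted p under 0.05 on each substrate, 1 of them the lower Etv5). In all genes, 29.4% changed on soft (14.1% rose and 15.3% fell) and 38.4% on stiff substrates (18.5% rose and 19.9% fell). The median log2 fold change of the 10 genes was 0.21 on soft and 0.26 on stiff substrates, whereas that of all genes was -0.0013 and -0.0014. The 6 genes were the same on both substrates, namely Etv4, Etv1, Etv6, Erf, Elk3 and Elk4. On soft substrates the count depended on single libraries, being 3 without the first 0 h replicate, 3 without the first 12 h replicate and 2 without the second, and DESeq2 called 4. On stiff substrates it was 3 without the first 12 h replicate. Etv4 and Erf passed under each alternative tried, including every left-out library. The summed level of the 7 stem cell markers was 6845 to 6997 CPM at 0 h and 5865 to 5998 CPM at 12 h on soft substrates, and 6907 to 6911 and 5602 to 5610 CPM on stiff substrates. That of 5 mesoderm markers went from 18.6 to 18.8 CPM up to 46.2 to 47.5 CPM on soft and from 15.7 to 19.2 CPM up to 55.6 to 56.3 CPM on stiff substrates. Over the 12 libraries T reached 36.7 CPM and Eomes 20.7 CPM, whereas Mixl1, Tbx6 and Mesp1 reached 0.99, 0.44 and 0.22 CPM. The mesoderm sum thus rests on T and Eomes. Of the 7 stem cell markers, 5 fell and 0 rose at 12 h on each substrate. Tfcp2l1 ran from 1695 to 2548 CPM over the 12 libraries, whereas Esrrb ran from 1035 to 1150 CPM. Whether the sums mark a change of cell type, and its part in the rise of the ETS genes, was not tested.

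**Figure D2:**
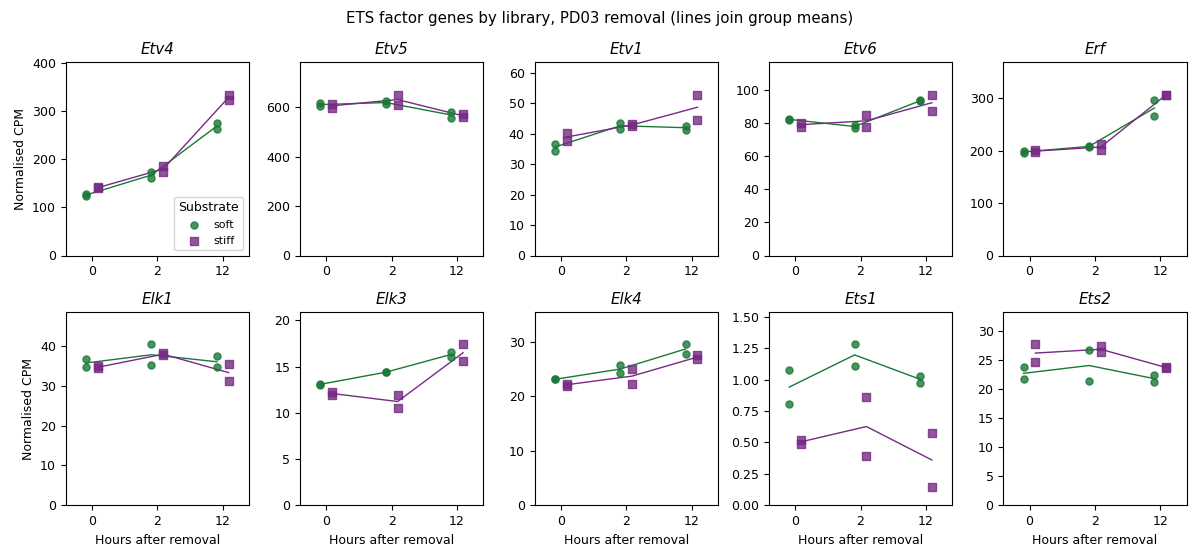
Normalised CPM of the 10 ETS genes at 0 h, 2 h and 12 h after PD03 removal on soft (green circles) and stiff (purple squares) substrates. Each point is a library, lines join group means of 2 libraries, and each panel has its own vertical axis from 0. Etv4 rises at 2 h and again at 12 h, and Erf rises at 12 h.

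Erf, the repressor, rose late. It was at 199.5 and 196 CPM at 0 h, 209 and 208 CPM at 2 h and 267 and 296 CPM at 12 h on soft substrates. On stiff substrates the libraries gave 197 and 202 CPM at 0 h, 212 and 202 CPM at 2 h, and 308 and 307 CPM at 12 h. The 12 h libraries lay above all others on both substrates. The log2 fold change at 12 h was 0.51 on soft (SE 0.05, adjusted p = 4.9e-09) and 0.62 on stiff substrates (SE 0.05, adjusted p = 4.4e-11), whereas at 2 h it was 0.07 (adjusted p = 0.63) and 0.06 (adjusted p = 0.69).

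The other PEA3 genes differed from Etv4. Etv5 was at 606 and 615 CPM at 0 h, 624 and 614 CPM at 2 h and 557 and 579.5 CPM at 12 h on soft substrates. On stiff substrates it was at 613 and 597.5 CPM, then 610.1 and 651 CPM, then 571 and 559 CPM. The 12 h libraries were the lowest of each substrate. Against 0 h the log2 fold change was -0.10 on both substrates (SE 0.04) and did not pass (adjusted p = 0.065 and 0.060). Against 2 h it passed, at -0.12 on soft (SE 0.04, adjusted p = 0.027) and -0.16 on stiff substrates (SE 0.04, adjusted p = 0.0039). That call was lost on soft substrates without the first 12 h replicate (adjusted p = 0.23) or either 2 h replicate (adjusted p = 0.14 and 0.074) and with all genes in the fit (adjusted p = 0.098), and on stiff substrates without the second 2 h replicate (adjusted p = 0.074). Etv1 was at 34.4 and 36.8 CPM at 0 h, 41.7 and 43.5 CPM at 2 h and 42.6 and 41.3 CPM at 12 h on soft substrates. There its 2 h and 12 h libraries overlapped, and both lay above 0 h. On stiff substrates Etv1 was at 40.1 and 37.7 CPM, then 42.65 and 43.1 CPM, then 44.5 and 52.9 CPM. Its rise at 12 h was 0.24 on soft (SE 0.08, adjusted p = 0.028) and 0.32 on stiff substrates (SE 0.08, adjusted p = 0.0021). The call on soft substrates was lost with DESeq2 (adjusted p = 0.064) and without the first 0 h replicate (adjusted p = 0.19) or either 12 h replicate (adjusted p = 0.13 and 0.067), and that on stiff substrates without the second 12 h replicate (adjusted p = 0.12).

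Etv6, Elk3 and Elk4 rose by smaller amounts. Etv6 was at 81.7 and 82.5 CPM at 0 h and 93.1 and 93.5 CPM at 12 h on soft substrates, and at 77.6 and 80.2 CPM and 97.1 and 87.2 CPM on stiff substrates. Its log2 fold change was 0.18 on soft (SE 0.06, adjusted p = 0.021) and 0.22 on stiff substrates (SE 0.06, adjusted p = 0.0044). Elk3, a ternary complex factor, was at 13.1 ± 0.12 CPM (SD, n = 2) at 0 h and 16.6 and 16.1 CPM at 12 h on soft substrates, and at 12.09 ± 0.17 CPM (SD, n = 2) and 17.4 and 15.6 CPM on stiff substrates. It rose by 0.32 on soft (SE 0.12, adjusted p = 0.038) and by 0.45 on stiff substrates (SE 0.12, adjusted p = 0.0032). Elk4 was at 23.1 CPM in both 0 h libraries and at 27.8 and 29.5 CPM at 12 h on soft substrates, and at 22.2 and 21.9 CPM and 27.5 and 26.8 CPM on stiff substrates. Its rise was 0.31 on soft (SE 0.09, adjusted p = 0.0091) and 0.30 on stiff substrates (SE 0.09, adjusted p = 0.011). The 12 h libraries of these genes lay above the 0 h libraries on both substrates. On soft substrates, leaving out any 0 h or 12 h library ended the calls of Etv6 and Elk3, with adjusted p up to 0.095 and 0.15, and Elk3 also did not pass with DESeq2 (adjusted p = 0.10) or without the filter on low counts (adjusted p = 0.055). Elk4 was lost on soft substrates without the second 12 h replicate (adjusted p = 0.091) and on stiff substrates without the second 0 h replicate (adjusted p = 0.066). On stiff substrates, leaving out the first 12 h replicate ended those of Etv6 (adjusted p = 0.17), Elk3 (adjusted p = 0.069) and Elk4 (adjusted p = 0.077). Elk3 has 316 exon bases in common with Cdk17 on the other strand, Etv6 135 with an antisense gene and Elk4 188 with neighbours, and whether counting used the strand is not given in the sources used here, so part of their counts may belong to those genes.

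Elk1, Ets2 and Ets1 did not pass at 12 h. The log2 fold changes of Elk1 were 0.01 on soft (95% interval -0.16 to 0.18) and -0.05 on stiff substrates (-0.23 to 0.12). Those of Ets2 were -0.06 (-0.27 to 0.15) and -0.15 (-0.36 to 0.06). For Ets1 the intervals ran from -0.83 to 1.03 and from -1.86 to 0.81.

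Between 2 h and 12 h, 4 of the 10 genes changed on soft substrates, beside 31.4% of all genes, and 5 changed on stiff substrates, beside 37.5%. Etv4 rose by 0.69 on soft (SE 0.05, adjusted p = 3.5e-11) and by 0.87 on stiff substrates (SE 0.05, adjusted p = 8.9e-14). Erf rose by 0.44 (adjusted p = 1.1e-07) and 0.57 (adjusted p = 5.1e-10), and Etv6 by 0.26 (adjusted p = 0.0017) and 0.19 (adjusted p = 0.019). Elk3 passed on stiff substrates, at 0.56 (SE 0.12, adjusted p = 6.2e-04), and Etv5 was the gene that fell on both. The Etv6 call on stiff substrates was lost without the first 12 h replicate (adjusted p = 0.34) or the first 2 h replicate (adjusted p = 0.24).

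Over the 12 libraries of PD03 removal, the genes most like Etv4 in log2 CPM were Zfp423 (Pearson r = 0.993), S1pr2 (r = 0.990) and Ltbp4 (r = 0.989). Those most like Erf were Rapgef3 (r = 0.990), Rarg (r = 0.990) and Ptk2b (r = 0.989). For Etv1 the closest was Pcsk5 (r = 0.946), followed by Trim6 and Cdon (r = 0.909 for both). Ankrd17 was closest to Etv6 (r = 0.958), ahead of Dicer1 (r = 0.957) and Cdc25b (r = 0.956). Elk3 was closest to Apex2 (r = 0.962), Cdan1 (r = 0.958) and Fbxo46 (r = 0.939), and Elk4 to Arfgef3 (r = 0.948), Hipk1 (r = 0.944) and Ercc2 (r = 0.934). The points share their libraries and the effect of time, and these values are descriptions.

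Between soft and stiff substrates, 1 of the 10 genes passed the test after adjustment. Etv4 at 12 h after PD03 removal was the lower on soft gels, at 263 and 276 against 324 and 335 CPM, without overlap. The log2 difference of soft from stiff was -0.29 (SE 0.05, adjusted p = 0.0024), beside 0.767% of all genes that differed. It did not pass without the first soft replicate (adjusted p = 0.064) or the second stiff replicate (adjusted p = 0.069) of 12 h. At 0 h Etv4 was also lower on soft substrates in both libraries, by a log2 difference of -0.17 (SE 0.05) that did not pass (adjusted p = 0.46), and at 2 h the difference was -0.11 (SE 0.05, adjusted p = 0.58). At 0 h and 2 h none of the 10 genes passed by edgeR or DESeq2, with 2 at an unadjusted p under 0.05 at each time, beside 0.0298% and 0.134% of all genes. Erf differed by -0.12 (SE 0.05, adjusted p = 0.34) at 12 h. Ets1 was higher on soft substrates in all libraries of each time. Its counts per library were 14 to 18 on soft and 2 to 12 on stiff substrates. The log2 differences were 0.88 at 0 h, 0.95 at 2 h and 1.51 at 12 h (adjusted p = 0.76, 0.61 and 0.33). In CHIRON removal Ets1 was instead lower on soft substrates at 0 h, at 0.541 and 0.564 against 0.597 and 0.761 CPM. There it was also below the 1 stiff library at 2 h, and the groups overlapped at 12 h.

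The response to PD03 removal itself did not differ detectably between substrates for any of the 10 genes. For Etv4 the response on soft minus that on stiff was 0.06 at 2 h (95% interval -0.09 to 0.21, adjusted p = 0.99) and -0.12 at 12 h (-0.27 to 0.02, adjusted p = 0.80). For Erf it was -0.11 at 12 h (-0.25 to 0.03, adjusted p = 0.82). Neither edgeR nor DESeq2 called any of the 10 at 2 h or 12 h, and 0 had an unadjusted p under 0.05, beside 0.00745% of all genes called at 2 h and 0% at 12 h (901 genes had an unadjusted p under 0.05 at 12 h, and DESeq2 called 0).

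Other genes of the pathway were taken from lists of known function, and their counts stand beside the shares of all genes at 12 h given above (14.1% rose and 15.3% fell on soft, and 18.5% rose and 19.9% fell on stiff substrates). Among 9 ERK feedback genes, which encode phosphatases and Sprouty proteins that restrain the cascade, 7 rose at 2 h on each substrate and 8 at 12 h on each, with a median log2 fold change at 12 h of 0.52 on soft and 0.77 on stiff substrates. Spry4, an inhibitor of receptor tyrosine kinase signalling, rose at 12 h by 2.34 on soft (SE 0.09, adjusted p = 3.6e-18) and 2.39 on stiff substrates (SE 0.08, adjusted p = 3.5e-19). Dusp6, an ERK phosphatase, rose by 1.13 (SE 0.06) and 1.33 (SE 0.06), and Spry2 by 0.72 (SE 0.06) and 0.77 (SE 0.06). Between substrates at 12 h, 4 of the 9 were lower on soft, where 0.767% of all genes differed in either direction. These were Dusp4 (-0.84, SE 0.17), Spry4 (-0.42, SE 0.07), Dusp6 (-0.39, SE 0.06) and Spred1 (-0.20, SE 0.05), which were singled out after their values were seen.

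Of 11 immediate early genes, many of which are targets of the ternary complex factors with SRF, 8 were tested. At 2 h 5 rose on soft and 6 on stiff substrates, beside 1.31% and 1.83% of all genes. Egr1, a zinc finger factor, went from 0 to 3 counts per library at 0 h to 295 to 316 at 2 h on soft substrates and from 0 to 4 up to 823 to 857 on stiff substrates (adjusted p = 1.8e-15 and 2.2e-19). The size of its fitted fold change depends on so few counts at 0 h and is not given. Fos rose by 1.62 (SE 0.23) and 2.80 (SE 0.21), and Junb by 0.98 (SE 0.13) and 1.40 (SE 0.12). At 12 h none of these 3 passed, whereas Ier2 rose by 0.32 (SE 0.07) on soft and 0.42 (SE 0.07) on stiff substrates and Mcl1 fell by 0.14 (SE 0.04) on soft substrates. Ier2 and Mcl1 are named because they were the genes of this list that passed at 12 h. The transcripts of Elk1, Elk3 and Elk4 did not pass the test at 2 h.

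The remaining ETS family gave other values than the 10 genes. Of 16 further family members 10 were tested, and at 12 h 0 rose and 5 fell on soft and 0 rose and 7 fell on stiff substrates, with medians of -0.18 and -0.25. Spic, an ETS factor of the SPI subfamily, fell by 2.05 on soft (SE 0.17, adjusted p = 2.2e-10) and by 2.11 on stiff substrates (SE 0.18, adjusted p = 2.9e-10). Ehf, an epithelial ETS factor, had fallen, with log2 fold changes of -1.99 (SE 0.54) and -2.098 (SE 0.46). It had 1 to 54 counts per library (at most 2.65 CPM), so the size of its change depends on few counts. Elf3 fell by 0.18 (SE 0.05) and 0.26 (SE 0.06). Among 5 known regulators of Etv1, Etv4 and Etv5, 2 rose on soft, and 2 rose and 2 fell on stiff substrates. Cic, which encodes capicua, rose by 0.32 (SE 0.05, adjusted p = 1.5e-05) and 0.42 (SE 0.05, adjusted p = 1.5e-07), and Det1, part of a ubiquitin ligase that degrades PEA3 proteins, by 0.46 (SE 0.11) and 0.38 (SE 0.11). Atxn1, a capicua partner, fell by 0.46 on stiff substrates (SE 0.14, adjusted p = 0.0097) and had -0.33 on soft substrates (SE 0.13, adjusted p = 0.063). The other gene that fell on stiff substrates was its paralogue Atxn1l, by 0.35 (SE 0.14, adjusted p = 0.047). Of 17 genes of the ERK cascade, 3 rose and 2 fell on soft and 6 rose and 3 fell on stiff substrates, where 29.4% and 38.4% of all genes changed; the share on soft substrates was that of all genes. The ligand Fgf4 fell by 0.50 on both (SE 0.06), whereas Braf rose by 0.19 (SE 0.07) and 0.46 (SE 0.07) and Mapk3, which encodes ERK1, by 0.56 (SE 0.11) and 0.57 (SE 0.11).

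**Figure D3:**
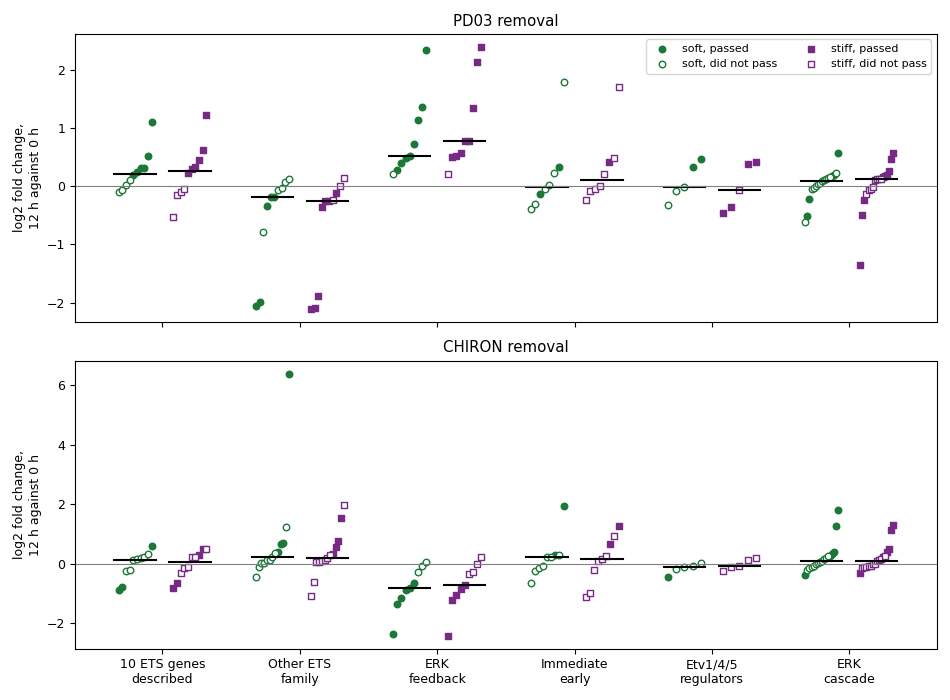
Log2 fold change at 12 h against 0 h of the tested genes in 6 lists, with soft in green circles and stiff in purple squares, PD03 removal above and CHIRON removal below. Filled points passed the test (adjusted p under 0.05), open points did not, and black lines are list medians; the vertical scales differ. The ERK feedback genes lie above 0 after PD03 removal and mostly below 0 after CHIRON removal.

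After CHIRON removal none of the 10 genes passed the test at 2 h. By edgeR 0 passed on either substrate (0 with an unadjusted p under 0.05, and 0 by DESeq2), beside 0.226% of all genes on soft and 0.103% on stiff substrates. At 12 h 3 of the 10 had changed on soft, beside 17.8% of all genes (9.18% rose and 8.63% fell), and 4 on stiff substrates, beside 16.8% (8.46% rose and 8.33% fell). The median log2 fold change of the 10 was 0.14 and 0.05, and that of all genes was -0.01 on both. The summed level of 4 neural progenitor markers went from 14.2 to 17.03 CPM at 0 h up to 28.7 to 31.2 CPM at 12 h on soft and from 15.03 to 17.7 CPM up to 27.75 to 30.65 CPM on stiff substrates. That of the 5 mesoderm markers went from 20.1 to 22.9 CPM down to 11.6 to 12.8 CPM on soft and from 21.5 to 22.55 CPM down to 9.59 to 10.7 CPM on stiff substrates. Over the 11 libraries Sox1 ran from 11.41 to 28.8 CPM, whereas Pax6, Zic1 and Neurog2 reached 3.571, 0.6928 and 0.192 CPM. The neural sum thus rests mainly on Sox1. In the mesoderm sum T ran from 0.1066 to 9.059 CPM and Eomes from 7.798 to 12.09 CPM. Of 3 neural markers tested 1 rose on each substrate, and of 4 mesoderm markers 1 fell on soft and 2 on stiff substrates. Whether the sums mark a change of cell type, and its part in the changes of the ETS genes, was not tested.

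Etv4 fell 12 h after CHIRON removal, when PD03 was still present. It was at 190 and 191 CPM at 0 h, 212 and 175 CPM at 2 h and 109.7 ± 0.495 CPM (SD, n = 2) at 12 h on soft substrates. On stiff substrates it was at 185 and 196 CPM at 0 h, 189 CPM in the 1 library of 2 h and 120.4 and 122 CPM at 12 h. Libraries of 12 h lay below all others. The log2 fold change was -0.80 on soft (SE 0.09, adjusted p = 3.0e-06) and -0.65 on stiff substrates (SE 0.09, adjusted p = 3.0e-05).

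Etv6 fell as well. Its levels on soft substrates were 100.4 and 109 CPM at 0 h, 103 and 101 CPM at 2 h and 59.1 and 52.9 CPM at 12 h. The stiff libraries gave 95.4 and 109 CPM, then 105 CPM, then 56.3 and 58.6 CPM. The 12 h libraries did not overlap any other. The change was -0.90 on soft (SE 0.09, adjusted p = 1.0e-06) and -0.83 on stiff substrates (SE 0.09, adjusted p = 2.7e-06). After PD03 removal the same gene had risen by 0.18 and 0.22, and the tables were not tested against each other.

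Ets2 rose, from 36.7 and 41.1 CPM at 0 h to 62.9 and 53.6 CPM at 12 h on soft substrates and from 41.3 and 46.7 CPM to 59.5 and 64.3 CPM on stiff substrates. The groups did not overlap, and the log2 fold change was 0.59 on soft (SE 0.10, adjusted p = 5.0e-04) and 0.49 on stiff substrates (SE 0.10, adjusted p = 0.0024). Elk1 rose on stiff substrates, from 53.2 and 56.0 CPM to 63.4 and 71.2 CPM, by 0.30 (SE 0.09, adjusted p = 0.033), and had 0.18 on soft substrates (SE 0.09, adjusted p = 0.21). The Elk1 call was lost without either 0 h replicate (adjusted p = 0.15 and 0.057) or the second 12 h replicate (adjusted p = 0.29), and with the replicate block (adjusted p = 0.054) or a block of tube number (adjusted p = 0.081). The other 6 genes did not pass on either substrate. Etv5 had -0.20 on soft (SE 0.08, adjusted p = 0.11) and -0.11 on stiff substrates (SE 0.08, adjusted p = 0.38), Etv1 had 0.21 (SE 0.09, adjusted p = 0.12) and 0.23 (SE 0.09, adjusted p = 0.097), and Erf had 0.17 (SE 0.09, adjusted p = 0.22) and 0.22 (SE 0.09, adjusted p = 0.10).

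**Figure D4:**
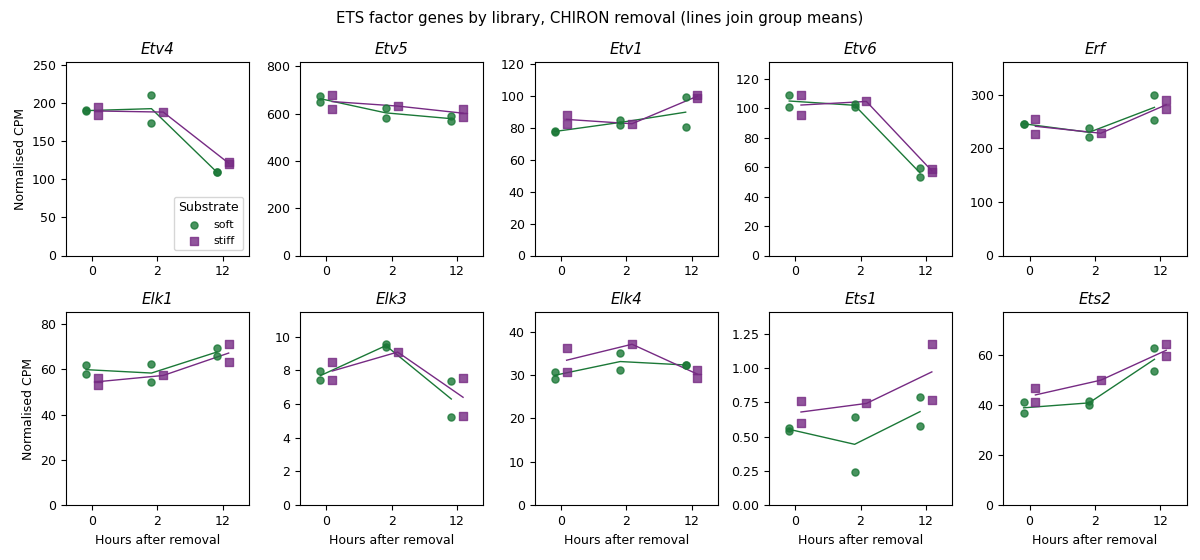
Normalised CPM of the 10 ETS genes at 0 h, 2 h and 12 h after CHIRON removal on soft (green circles) and stiff (purple squares) substrates. Each point is a library, lines join group means, stiff at 2 h has 1 library, and each panel has its own vertical axis from 0. Etv4 and Etv6 are lower and Ets2 is higher at 12 h.

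**Figure D5:**
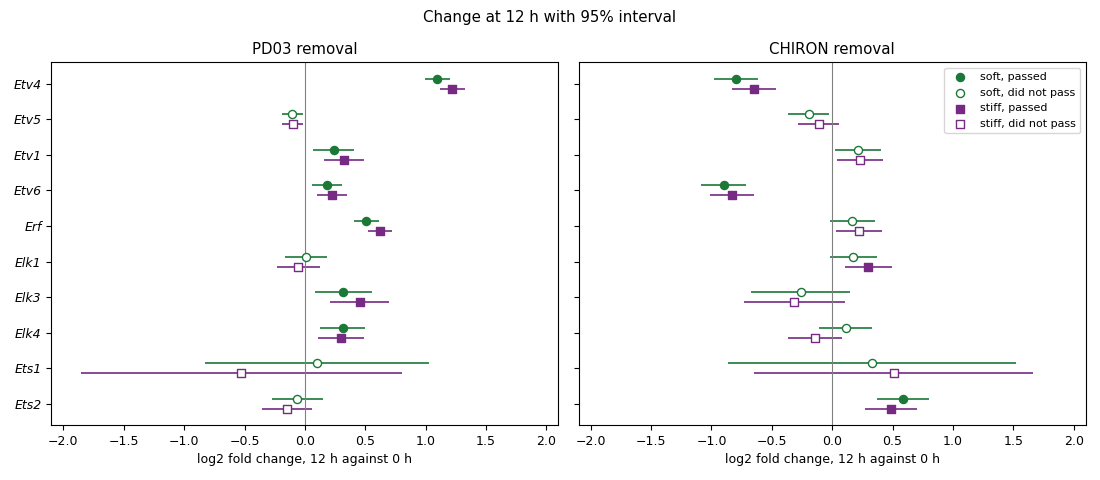
Log2 fold change at 12 h against 0 h of each ETS gene after PD03 removal (left) and CHIRON removal (right), with 95% intervals. Green circles are soft and purple squares are stiff substrates, filled where the adjusted p was under 0.05. Etv4 lies at 1.10 and 1.22 on the left and at -0.80 and -0.65 on the right.

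Between soft and stiff substrates 0 of the 10 genes passed in the CHIRON experiment at 0 h, 2 h or 12 h. This stood beside 0% of all genes at each time by edgeR and 0 genes by DESeq2. At an unadjusted p under 0.05 there were 0, 1 and 0 of the 10, and 508, 838 and 471 of all genes. The gene at 2 h was Ets2, at -0.29 (SE 0.12, adjusted p = 0.82), which rests on the 1 stiff library. The responses at 2 h and 12 h did not differ detectably between substrates either, with 0 of the 10 and 0% of all genes by edgeR, 0 genes by DESeq2, and 452 and 415 genes at an unadjusted p under 0.05. For Etv4 the response on soft minus that on stiff at 12 h was -0.15 (95% interval -0.40 to 0.10).

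The related lists at 12 h after CHIRON removal gave 0 ERK feedback genes that rose and 6 of 9 that fell on soft, and 0 and 5 on stiff substrates, where 8.63% and 8.33% of all genes fell. Spry4 fell by 2.36 on soft (SE 0.19, adjusted p = 1.3e-07) and by 2.42 on stiff substrates (SE 0.19, adjusted p = 8.5e-08), and Spry2 by 1.35 (SE 0.09) and 1.24 (SE 0.09). Of 13 further ETS genes tested, 4 rose on each substrate and 0 fell, beside 9.18% and 8.46% of all genes that rose. Among them Elf3 rose by 0.70 (SE 0.08) and 0.57 (SE 0.08) and Spic by 0.68 (SE 0.13) and 0.77 (SE 0.14). Fgf4 rose by 1.28 (SE 0.08, adjusted p = 3.2e-09) and 1.15 (SE 0.08, adjusted p = 1.5e-08). Cic had 0.02 (SE 0.08) and 0.11 (SE 0.08) and did not pass.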

How the data were processed

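RNA of E14 mESCs was sequenced in 24 libraries after ribosomal RNA depletion. Per the labels, reads were trimmed with Trim Galore, aligned to mm10 with TopHat2 2.1.0 and counted with featureCounts 1.5.0, and the authors deposited read counts per gene without normalisation. The strand setting was not given in the sources used here. Another 12 columns of the PD03 table belong to other samples and were not used. Counts of protein-coding genes (GENCODE annotation of GRCm38) passed a low-count filter (filterByExpr, at least 10 counts), were scaled by TMM and entered the quasi-likelihood test of edgeR 4.0.16 (R 4.3.3) over all groups of an experiment (13423 and 14615 genes tested), with Benjamini-Hochberg adjustment over all tested genes and a threshold of 0.05. CPM and RPKM were computed from TMM-scaled library sizes. The SE was the size of the log2 fold change divided by the square root of F. Data were simulated for 12 h against 0 h on stiff substrates, with 200 genes changed by a log2 fold change of 1. Of these, 171 of 200 were recovered in PD03 removal (13273 genes) and 149 of 200 in CHIRON removal (14259 genes). Among the unchanged genes, 7 and 14 were called as well. Smaller changes, such as most of those reported here, were not simulated. Replicate pairs differed by more than counting noise. The chi-square per degree of freedom was 2.18 to 3.12 in PD03 removal and 6.23 to 18.5 in CHIRON removal. All 10 members, and of each other list the 3 genes with the smallest adjusted p at 12 h on stiff substrates after PD03 removal (at 2 h for immediate early genes), are named. The members and lists were chosen with earlier results of these data known. Alternatives were DESeq2 1.42.0, its size factors, no filter, all genes, the compared groups alone, blocks, all 12 libraries and each library left out.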

Additional observations from a re-analysis of the deposited data

Results flagged for a closer look

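The stiff 2 h library of CHIRON removal that was left out held 171333 counts, of which 5 were assigned to Ets1. This is 29.2 CPM of total counts (95% exact Poisson interval 9.48 to 68.1, counting error only), above the 0.482 and 0.618 of the 2i+LIF libraries on stiff substrates and the 0.604 of the other 2 h library. It drew attention because the value, in a library that the reported comparisons leave out, lay above the controls. In that library 56.7% of the counts belonged to protein-coding genes, against 78.02% to 85.3% in the other libraries of CHIRON removal. In the same library Etv5 had 2 counts, or 11.7 CPM, whereas the controls had 502 and 553. Erf had 0 counts (interval up to 21.5 CPM), whereas the controls had 185 and 206 CPM. No other of the 10 genes had an interval above its controls. The cause was not tested.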

How the results depend on the processing

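Of 366 counts of ETS genes called under alternatives, 358 stayed within 1.5 times the reported count. These include comparisons with a reported count of 0 that stayed at 0. A count of 4 beside a reported 6 was within this limit. Leaving out 1 library at a time gave 2 to 6 genes after PD03 removal at 12 h against 0 h on soft and 3 to 7 on stiff substrates, and 0 to 1 between soft and stiff at 12 h. After CHIRON removal at 12 h it gave 3 to 4 on soft and 3 to 5 on stiff substrates. With all 12 libraries, the shallow one included, CHIRON removal at 12 h gave 1 gene on soft and 0 on stiff substrates. Of 565 fold changes of called genes under alternatives, 40 lost the call and 0 changed direction. Of the 40, 28 came from leaving out a library and 6 from including the shallow one. DESeq2 called 4 ETS genes after PD03 removal at 12 h on soft substrates. Replicate numbers did not pair the samples, since deviations of same-numbered libraries correlated at -0.0524 to 0.112 in PD03 removal and -0.109 to 0.0713 in CHIRON removal. With a replicate block the number of ETS genes was 6 on both substrates at 12 h after PD03 removal, and 3 on both after CHIRON removal, where Elk1 was lost on stiff substrates. Calls of Etv4 and Erf after PD03 removal against 0 h did not depend on any alternative run. Causes were not tested. Depth limits Ets1, with 2 to 18 and 4 to 22 counts per library.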
